A study of Homo sapiens with 4 samples.

Results

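Keratins are the intermediate-filament proteins of epithelial cells, and 7 keratin genes were followed through the m6A peak lists of GES-1 cells: KRT8, KRT18, KRT7 and KRT19 of simple epithelium, KRT5 and KRT17 of squamous and basal epithelium, and KRT80, which is known from many epithelia. A listed peak was assigned to a gene when its summit lay inside that gene's hg19 span, given to the nearest 1 kb. Of the 7 genes, 1 had listed peaks, and it was the same gene in both lists: KRT80. It held 3 of the 52188 peaks listed for cells given chenodeoxycholic acid (CDCA) and 4 of the 63093 peaks listed for untreated cells. KRT8, KRT18, KRT7, KRT5, KRT19 and KRT17 were not listed in either. For scale, 11.9% of 7 kb tiles on chromosomes 12 and 17 held a CDCA summit, and 14.2% held a control summit. The tiles were laid without regard to genes. With most tiles empty, the absence at these genes is not read as a trait of keratins.

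A keratin filament is built from pairs of one type I and one type II chain, so that a cell needs both kinds at once. KRT8 and KRT18 are the classic pair of simple epithelia such as the stomach lining, and KRT7 and KRT19 are often found beside them. KRT5 pairs with type I chains in basal cells of stratified epithelium, and KRT17 is known as a keratin of skin appendages and of stressed epithelium. The mark N6-methyladenosine (m6A) is placed on adenosines of messenger RNA by a methyltransferase complex and removed by demethylases such as ALKBH5, and it bears on the splicing, translation and decay of the transcripts that carry it. On messenger RNA it is typically found in long internal exons and around the stop codon.

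GES-1 is a cell line labelled as gastric epithelium. The CDCA group was given this primary bile acid at 100 µM for 48 h, and the control group was left without treatment. Each group consisted of 1 m6A immunoprecipitation library and 1 input library, and the 2 immunoprecipitation peak lists were analysed here. With 1 library per condition there was no replicate and no test between conditions, so that the treatment and the library cannot be told apart. The lists hold no expression values, and the labelled cell type was not checked against its markers.

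Each listed peak comes with the authors' own scores, which describe and rank peaks within a list. Fold enrichment was taken as the height at the summit over the local background, with 1 added to each. No listed value was below 6 in either list. Significance is given as −log10 of a q-value. Heights were whole multiples of 0.640 in the CDCA list and 0.862 in the control list, for 100% of peaks in each at a tolerance of 0.02 steps. A step was read as 1 sequenced fragment, so each summit can be given in fragments, with an exact Poisson 95% interval that covers counting error only. The weakest listed summits held 15 fragments in the CDCA list and 12 in the control list. A gene that is not listed may have had a peak below these thresholds. A listed peak also depends on how much of the transcript was present, and the lists cannot tell fewer methylated transcripts from fewer transcripts.

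KRT80, a type II keratin gene on the minus strand of chromosome 12 with a span from 52.562 to 52.586 Mb, carried its strongest listed m6A site near the 3′ end in both lists. In CDCA-treated cells this site ran from 52564764 to 52565257 with its summit at 52565047, and in control cells from 52564709 to 52565266 with its summit at 52565084. The summit held 303 fragments (269.8 to 339) in the CDCA list and 365 fragments (328.5 to 404) in the control list. These 2 intervals overlapped only narrowly, between the upper end of the CDCA one and the lower end of the control one, but the counts were not scaled for the depth of the libraries and give no comparison of the conditions. Fold enrichment at this site was 11.5 in the CDCA list and 14.4 in the control list, above 75.1% and 77.8% of the peaks of those lists. Its −log10 q was 131 in the CDCA list and 241 in the control list, which placed it above 93.6% and 96.4% of the peaks of those lists. The summits lay 20.95 kb and 20.92 kb from the 5′ end of the 24 kb span, at 87.3% and 87.2% of its length. All positions given for KRT80 are along this genomic span and not along the messenger RNA. No strand is listed and no hg19 gene models were used, so no KRT80 peak was placed on an exon or a transcript.

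A second KRT80 site lay about 4 kb further towards the 5′ end and had the highest fold enrichment of the gene in both lists. It ran from 52568747 to 52569688 in the CDCA list and from 52568729 to 52569238 in the control list, with summits at 52568977 and 52568961. The summit held 149 fragments (126 to 175) in the CDCA list and 224 fragments (196 to 255) in the control list. These intervals did not overlap, but here too the counts were not scaled for depth and give no comparison of the conditions. Fold enrichment was 21.9 in the CDCA list and 17.7 in the control list, above 94.95% and 86.9% of the peaks of those lists. By −log10 q, 97.0 in CDCA and 168 in control, the second site came after the first in each list. The order of the 2 sites was thus the same in both libraries: the site near the 3′ end led in height and significance, and the second led in fold enrichment.

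Both strong KRT80 sites were shared, meaning that the peaks of the 2 lists overlapped by at least 1 bp. At the first, the whole of the CDCA peak and 88.5% of the control peak lay in the 494 bp of overlap. At the second, 492 bp of overlap made up 52.2% of the CDCA peak and 96.5% of the control peak, because the CDCA peak reached 450 bp further towards the 5′ end of the gene. The summits of the 2 lists were 37 bp apart at the first site and 16 bp apart at the second. Over the 11584 shared CDCA peaks the median distance to the nearest partner summit was 49 bp, and 42.4% had one within 37 bp. The KRT80 summits were therefore placed about as closely as those of many other shared peaks.

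**Figure D1:**
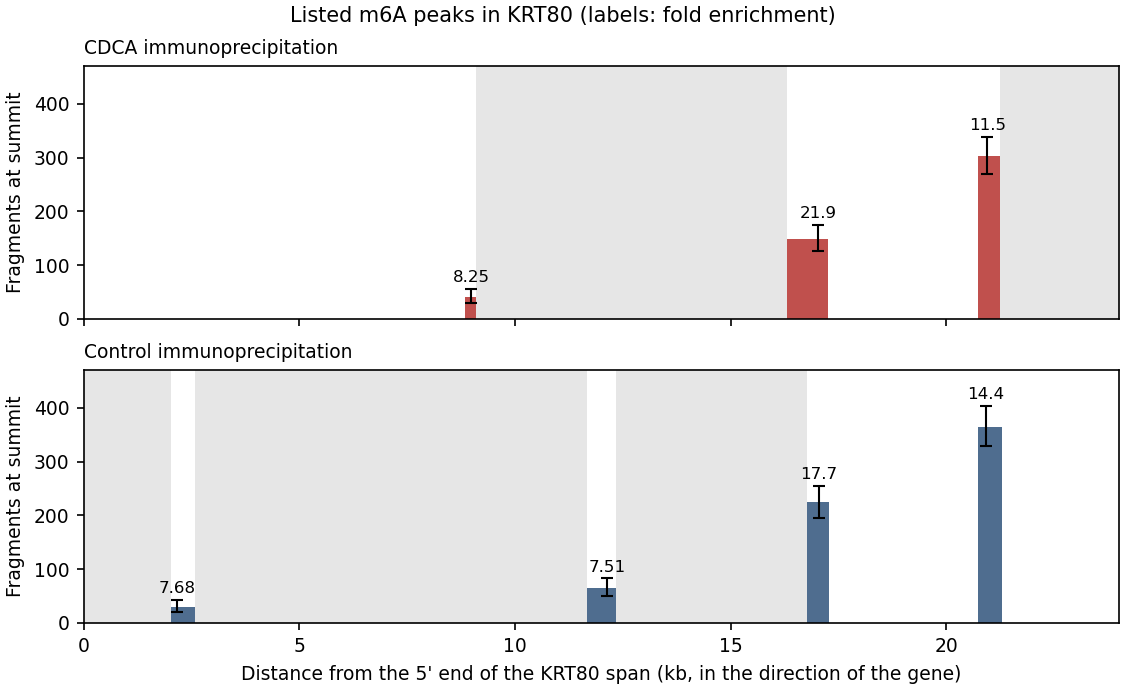
Listed m6A peaks along the 24 kb span of KRT80 in CDCA (top) and control (bottom) immunoprecipitations. The x axis is the distance from the 5′ end in kb and the y axis the fragments at the summit; each bar covers a listed peak, error bars are exact Poisson 95% intervals for counting error, and labels give fold enrichment. Grey marks stretches between neighbouring listed peaks in which peak numbers are skipped, some of which run on beyond the span. The 2 sites near the 3′ end appear in both lists, with 303 and 149 fragments in CDCA and 365 and 224 in control.

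The weaker KRT80 peaks were listed in 1 library each. The third peak of the CDCA list, of 238 bp at 52576916 to 52577153, had 41 fragments (29.4 to 55.6), a fold enrichment of 8.25 and a −log10 q of 16.5. It lay 37.4% of the way along the gene, and the nearest control peak was 2585 bp away. The control list had a peak at 52573666 to 52574330 about midway along the gene (50.6%), with 65 fragments (50.2 to 82.8), a fold enrichment of 7.51 and a −log10 q of 29.9. A further control peak at 52583416 to 52583977 lay 2.17 kb from the 5′ end of the span, with 30 fragments (20.2 to 42.8), a fold enrichment of 7.68 and a −log10 q of 14.8. The 3 peaks listed in 1 library alone were thus the weakest of the gene, and none of them reached a fold enrichment of 10.

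Sharing at KRT80 followed strength as it did among peaks of like strength elsewhere in the lists. In all, 2 of 3 CDCA peaks and 2 of 4 control peaks of KRT80 were shared, against 22.2% of all CDCA peaks and 18.2% of all control peaks. With 3 and 4 peaks the exact Clopper-Pearson 95% intervals ran from 9.43% to 99.2% in CDCA and from 6.76% to 93.2% in control. Peaks within a factor of 1.2 of the first site's −log10 q were shared in 85.6% of 982 CDCA cases and 90.9% of 803 control cases. For the second site the same shares were 76.2% of 1208 in CDCA and 85.2% of 992 in control. Among peaks as strong as the third CDCA peak, 12.7% of 9138 were shared. Among peaks as strong as the 2 unshared control peaks, the shares were 13.2% of 9482 for the one midway along the gene and 7.33% of 12762 for the one near the 5′ end.

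**Figure D2:**
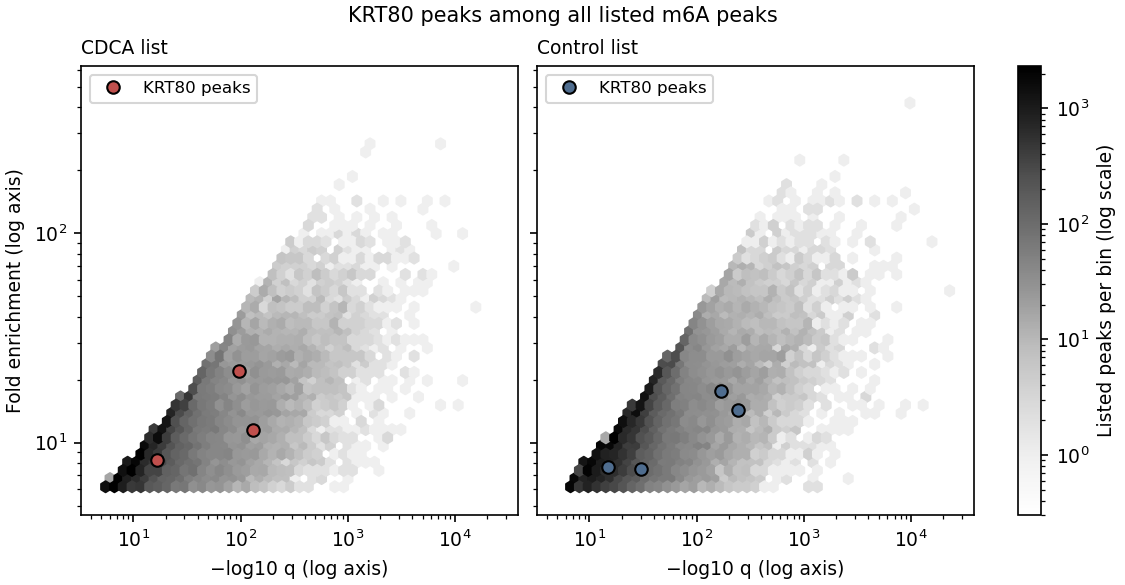
Fold enrichment against −log10 q for every listed peak (grey bins, darker for more peaks) and for the KRT80 peaks (points), in the CDCA list (left) and the control list (right); both axes and the grey scale are logarithmic. In each list 2 KRT80 peaks stand apart from the dense mass of weak peaks, at a −log10 q of 131 and 97.0 in CDCA and of 241 and 168 in control.

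Skipped peak numbers mark stretches of KRT80 in which a numbered peak is missing from a list. Every peak carries a running number that follows position along each chromosome, and both lists skip numbers. In the CDCA list 1 number is skipped in the 7.23 kb between the second and the third KRT80 peak, the stretch that holds the control peak midway along the gene. The control list skips 1 number in the 9.09 kb that hold the third CDCA peak, and 1 more in the 4.43 kb just 5′ of its second peak, into which the longer CDCA peak reaches. Numbers are also skipped in outer stretches that reach into the span. The CDCA list skips 2 in the 65.6 kb on the 3′ side of its first KRT80 peak. The control list skips 3 in the 115 kb on the 5′ side of its last KRT80 peak, and none in the 27.1 kb on the 3′ side of its first. The lists do not say where in such a stretch the missing peak lay. No number is skipped in the 18.7 kb that follow the third CDCA peak towards the 5′ end, so no CDCA peak was numbered at the control peak 2.17 kb from the 5′ end. Nor is any number skipped between the first and second sites in either list, so that no other peak was numbered between them.

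The local background under the KRT80 summits, recovered from height and fold enrichment, was highest near the 3′ end in both libraries. It was 16.0 under the first site in the CDCA list and 21.0 in the control list, on the scale of the heights. Since the depth of the inputs is unknown, each value was also set against the lowest background of its list. The first site then stood at 21.5 times that level in CDCA and 26.3 times in control, and the second at 4.56 times in CDCA and 12.5 times in control. The third CDCA peak stood at 3.09 times, and the control peaks midway and near the 5′ end at 8.27 and 3.13 times. Within each list, therefore, background fell with every step from the 3′ end to the 5′ end of the gene.

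The 2 strong sites differed more in background than in height. Of the fragments at both summits, 67.0% (62.5 to 71.4) lay at the first site in the CDCA list and 62.0% (57.9 to 65.9) in the control list, and these intervals overlap. The background under the second site was 21.3% of that under the first in CDCA and 47.6% in control. Fold enrichment at the second site was 1.91 times that at the first in the CDCA list and 1.23 times in the control list. Background was computed from height and fold enrichment, so these ratios restate the same difference. The local background is an estimate by the peak caller from 1 library, for which no error can be given.

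The control peaks of KRT80 were long, and the CDCA peaks varied in length. All 4 control peaks measured over 500 bp (558, 510, 665 and 562 bp from the 3′ end on), and 9.47% of all control peaks were at least 500 bp long, a limit chosen after the lengths had been seen. In the CDCA list 1 of 3 did so, at 942 bp, beside peaks of 494 and 238 bp, and 9.85% of all CDCA peaks were that long. For the 2 strong control peaks such a length was common, since 56.0% and 53.3% of control peaks of like strength were as long or longer. For the weak control peaks it was not: 1.54% of peaks as strong as the one midway along the gene reached its 665 bp, and 0.823% of those as strong as the one near the 5′ end reached its 562 bp. The second CDCA peak was also long for its strength, with 8.28% of like peaks at 942 bp or more. The first and the third CDCA peak were of ordinary length for theirs, with 54.4% and 34.6% of like peaks as long or longer. Listed peaks covered 1674 bp of KRT80, or 6.98% of its span, in the CDCA list and 2295 bp, or 9.56%, in the control list.

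**Figure D3:**
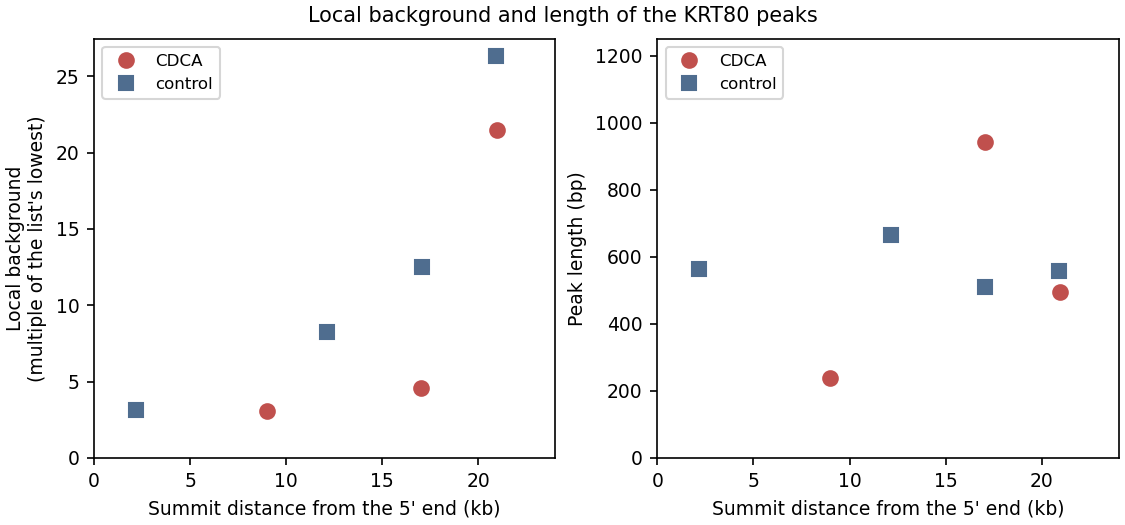
Local background as a multiple of the list's lowest value (left) and peak length in bp (right) for each KRT80 peak, against the distance of its summit from the 5′ end in kb; circles are CDCA peaks and squares control peaks, and no error can be given for either value. Background rises towards the 3′ end in both libraries, to 21.5 in CDCA and 26.3 in control, and all 4 control peaks are over 500 bp long.

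Stretches as rich in peaks as KRT80 were frequent in both lists. Of all CDCA peaks, 34.5% opened a stretch of 24 kb with at least 3 listed peaks, and of all control peaks, 22.3% opened one with at least 4. That the other 6 keratin genes had no peak can likewise be read against the lists. Their spans ran from 5 to 17 kb, and in tiles of 7 kb, the median span of the 7 genes, over chromosomes 12 and 17, 11.9% held a CDCA summit and 14.2% a control summit. The tiles were laid without regard to genes, so these shares are no measure of how often a gene was listed.

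The keratins of simple epithelium had no listed peak in either library. KRT8, the type II chain of the simple pair, spans 53.290 to 53.299 Mb on the minus strand of chromosome 12, and its type I partner KRT18 spans 53.342 to 53.347 Mb on the plus strand. The peak nearest to the KRT8 span lay 13.3 kb away in the CDCA list and 2.75 kb away in the control list. The nearest to KRT18 was 14.3 kb away in the CDCA list and 21.8 kb in the control list. KRT7, the type II chain of glandular and duct epithelium, spans 52.626 to 52.643 Mb on the plus strand, and its nearest listed peak was 29.8 kb away in CDCA and 42.0 kb in control. KRT19, the shortest of the keratin proteins, spans 39.679 to 39.685 Mb on the minus strand of chromosome 17, and its nearest peak was 44.2 kb away in CDCA and 7.35 kb in control.

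The spans of the 2 squamous keratins were further still from any listed peak. KRT5, the type II chain of basal cells, spans 52.908 to 52.915 Mb on the minus strand of chromosome 12, and the nearest peak was 206 kb away in the CDCA list and 209 kb in the control list. KRT17, a type I chain, spans 39.775 to 39.781 Mb on the minus strand of chromosome 17, and the nearest peak was 140.2 kb away in CDCA and 103 kb in control. Both genes lie within the keratin clusters, so these distances reach past neighbouring keratin genes.

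For KRT19 and KRT17 the peak numbers tell more than the missing entries. Both genes fall between the same neighbouring listed peaks, which lie 323 kb apart in the CDCA list and 287 kb apart in the control list. In the control list these neighbours carry consecutive numbers, so that no control peak was numbered at KRT19 or KRT17. In the CDCA list 1 number is skipped, so at most 1 peak was numbered and left out over the whole stretch. Around KRT5 the CDCA list skips 1 number in 457 kb. The control list skips 3 in the 602 kb that hold both KRT5 and KRT8. Around KRT8 the CDCA list skips 2 numbers in 154 kb, around KRT7 4 in 97.1 kb against 3 in 115 kb in control, and around KRT18 5 in 120.2 kb against 5 in 122 kb. A peak called at these 4 genes and left out of the lists can therefore not be told apart from no call.

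The 2 keratin clusters held few listed peaks beyond those of KRT80. From KRT80 to KRT18, the 785 kb of chromosome 12 held 10 CDCA and 7 control peaks, or 12.7 and 8.92 per Mb, against 19.7 and 23.6 per Mb over the chromosome. In the RefSeq gene order (GRCh38.p14, used for names and order alone), this stretch has 27 protein-coding keratin genes, of which 22 are not among the 7 followed here. Outside the member spans it held 7 CDCA peaks and 3 control peaks. The 1 shared site among them was at 52699165 to 52699370 in CDCA (fold enrichment 7.67) and 52699173 to 52699434 in control (9.38). The strongest CDCA peak there, at 52595889 to 52596184, lay 9.89 kb beyond the 5′ end of KRT80, with a fold enrichment of 12.3 and a −log10 q of 21.8. From KRT19 to KRT17, the 102 kb of chromosome 17 held no listed peak in either library, while that chromosome had 24.1 CDCA and 29.4 control peaks per Mb. Rates per Mb are means over a chromosome, and how often other stretches of such lengths held as few peaks was not counted. RefSeq has 5 protein-coding keratin genes there, 3 of them not followed here.

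The count for KRT8 depends on where the gene is taken to begin. The RefSeq entry of KRT8 is 52670 bp long, against a span of 9 kb here, and in the RefSeq order no other protein-coding gene lies between KRT8 and KRT18. Between the 2 spans the CDCA list had peaks at 53312331 to 53312530 and 53327475 to 53327674, with fold enrichments of 7.58 and 6.07 and −log10 q of 12.7 and 7.60. The control list had peaks at 53301754 to 53301962 and 53320039 to 53320238, with fold enrichments of 9.04 and 7.73 and −log10 q of 20.4 and 13.2. None of these 4 peaks overlapped a peak of the other list. That was the usual case, since 22.2% of all CDCA peaks and 18.2% of all control peaks did overlap one. All were between 200 and 209 bp long, near the minimum of the lists, and held 25 to 37 fragments at the summit. If KRT8 is carried on to the start of KRT18, 2 of the 7 keratins are listed in each library, with 5 CDCA and 6 control peaks. No strand is listed and no hg19 gene models were used, so these peaks were not assigned to a transcript.

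**Figure D4:**
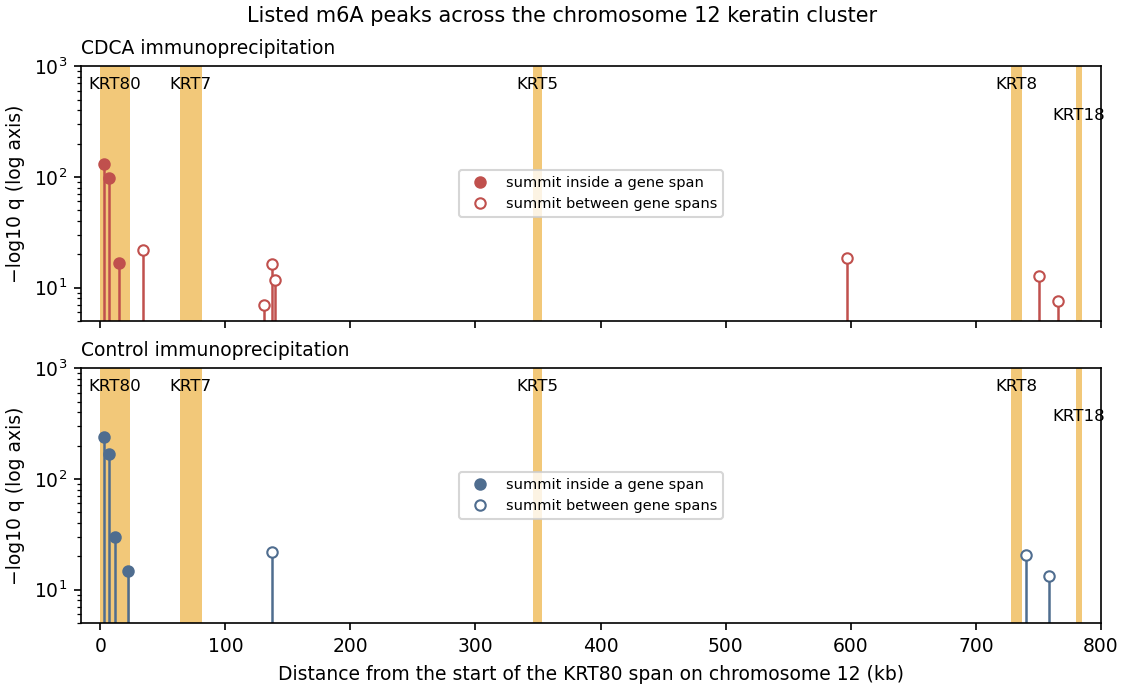
Listed m6A peaks across the chromosome 12 keratin cluster in CDCA (top) and control (bottom), with distance from the start of the KRT80 span in kb on the x axis and −log10 q on a logarithmic y axis; orange bands are the spans of the 5 genes followed there. Filled points have their summit inside a span and open points between spans. Filled points occur at KRT80 alone, and the open points beside KRT8 have a −log10 q of at most 12.7 in CDCA and 20.4 in control.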

How the data were processed

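Peak lists of the CDCA and the control m6A immunoprecipitation, 1 library each, were used as deposited. The libraries were read from both ends at 150 bp, per the labels' protocols. Tools named in the submitters' processing notes are MACS2 2.1.0 and TopHat2 2.0.13, with hg19 as the build. Thresholds and filters were not given in the sources used here. Per the file headers, the authors' height at the summit is a signal, fold enrichment is a ratio, and the −log10 columns hold the deposited p-value and q-value of each peak. The deposited interval files held the same positions. Coordinates are counted from 1.

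Peaks were assigned to genes by summit. Background was computed as height plus 1, divided by fold enrichment, minus 1. Sharing, ranks and 24 kb counts were computed over whole lists (peaks of like strength: −log10 q within a factor of 1.2). Skipped numbers were counted in and around the 7 gene spans. The work used Python 3.11.15, numpy 2.4.6, pandas 2.3.3 and scipy 1.17.1. The overlap rule, the 24 kb count and the height step were tested on simulated data, and ranks and skipped numbers were not. Of the RefSeq promoter table (GRCh38.p14), entries matched by name for 2 of the 7 genes. None is printed, as their positions were not compared with the hg19 peaks. The genes and lists were chosen with earlier results of these data known, and every listed peak of each gene is given. Alternatives covered assignment, thresholds, overlap, ranking, background and position.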

Additional observations from a re-analysis of the deposited data

How the results depend on the processing

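KRT80 stayed the single listed keratin in each list under all 6 other settings tried for assignment, thresholds and equal list sizes. The thresholds and the equal list sizes only take peaks away, so they could not have brought in another keratin. Equal list sizes left the CDCA list, the shorter one, as it was. Of these settings, only any overlap and spans widened by 1 kb could have added a gene. When KRT8 was carried on to KRT18, a setting chosen after seeing the data, 2 genes were listed in each library. There were then 5 CDCA peaks and 6 control peaks. The control count of 4 KRT80 peaks fell to 2 at a −log10 q of at least 50 and to 2 at a fold enrichment of at least 10. At a −log10 q of at least 20 in both lists, 100% of the 2 remaining CDCA peaks were shared, against 66.7% of the 3 remaining control peaks. At this cut the 7 CDCA peaks between the member genes fell to 1, and the 3 control peaks there to 2. The leading KRT80 peak stood above 75.1% of CDCA peaks and 77.8% of control peaks by fold enrichment, and above 94.6% and 96.9% by height. The cause of these shifts was not tested beyond the change of rule itself. By peak midpoint the leading KRT80 peak lay at 87.46% of the span in CDCA and 87.55% in control, against 87.3% and 87.15% by summit. A midpoint cannot leave its own peak, so only a small shift was possible. Background multiples are the backgrounds divided by 1 value per list, so they say nothing about stability. No paired analysis was possible because there was 1 library per condition, so no replicate could be left out either. Depth in reads is unknown, and an unlisted gene may have lain below the authors' thresholds.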
